A study of Mus musculus with 72 samples.

Results

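The 10 genes described here are the myogenic regulatory factors *Myod1*, *Myog*, *Myf5* and *Myf6*, the satellite cell factor *Pax7*, the TEA domain factors *Tead1* and *Tead4*, and the myocyte enhancer factors *Mef2a*, *Mef2c* and *Mef2d*. They were chosen by name, with earlier results of these data known, as 10 of the 55401 genes in the deposited tables. All 10 passed the filter on low values, a mean normalized count above 5, in both experiments. The shares over all genes given below are a background and not a test of this choice. RNA-Seq was carried out on gastrocnemius, a hindlimb muscle, of male mice, collected at ZT1, an hour after lights on. At 10 weeks there were 6 WT, 6 *Bmal1*-KO and 7 KO+AAV libraries, and at 40 weeks each group had 5. The *Bmal1*-KO mice lack the clock factor BMAL1 (gene symbol *Arntl*) in all tissues, and the KO+AAV mice are the same knockouts given, at postnatal day 5, an AAV9 vector with HA-tagged *Bmal1* under CK6, a promoter active in muscle fibers, so that the other cells of the muscle stay without BMAL1. A second experiment at 10 weeks, in a table normalized separately, held 3 libraries from *Bmal1*-KO mice given AAV9-CK6-GFP (KO+GFP) and 3 from *Bmal1*-KO control mice. ICBR sequenced 3 WT, 3 KO and 4 KO+AAV libraries of the 10-week groups, and Novogene the others.

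The myogenic regulatory factors are basic helix-loop-helix proteins that bind E-boxes together with E proteins. MYF5 and MYOD1 commit cells to the muscle lineage, myogenin (*Myog*) drives their differentiation, and MRF4 (*Myf6*) is the member that prevails in mature fibers. PAX7 marks satellite cells, the stem cells that lie on the fibers. TEAD proteins bind the MCAT element and need a partner, such as YAP or TAZ of the Hippo pathway or a VGLL protein, to activate transcription, while MEF2 proteins bind an AT-rich element beside the myogenic factors and are held inactive by class IIa histone deacetylases.

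Among the RefSeq promoter windows, entries were used for *Myog*, *Mef2a*, *Mef2c*, *Mef2d*, *Myf5* and *Pax7*, and *Myod1*, *Myf6*, *Tead1* and *Tead4* had none. The 250 bases before the start are shown for the 3 matched genes whose level differed between WT and KO at 40 weeks by the largest margin (*Myog*) or in the same direction within 1 family (*Mef2a* and *Mef2c*, at the most upstream of the 3 *Mef2c* starts). They are read 5′ to 3′ on the gene's strand in GRCm38.p6, with matches in capitals.
*Myog* (chr1:134289754-134290003, plus strand): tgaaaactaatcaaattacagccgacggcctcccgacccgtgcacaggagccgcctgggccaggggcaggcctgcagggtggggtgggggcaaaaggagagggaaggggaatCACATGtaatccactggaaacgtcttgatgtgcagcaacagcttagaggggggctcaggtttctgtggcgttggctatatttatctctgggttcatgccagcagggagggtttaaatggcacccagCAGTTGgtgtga
*Mef2c* (chr13:83503784-83504033, plus strand): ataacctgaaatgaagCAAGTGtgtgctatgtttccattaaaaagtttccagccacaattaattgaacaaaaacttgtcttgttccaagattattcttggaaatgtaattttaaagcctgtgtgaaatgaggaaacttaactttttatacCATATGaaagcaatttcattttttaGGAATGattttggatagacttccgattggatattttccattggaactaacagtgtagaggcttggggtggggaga
*Mef2a* (chr7:67372859-67373108, minus strand): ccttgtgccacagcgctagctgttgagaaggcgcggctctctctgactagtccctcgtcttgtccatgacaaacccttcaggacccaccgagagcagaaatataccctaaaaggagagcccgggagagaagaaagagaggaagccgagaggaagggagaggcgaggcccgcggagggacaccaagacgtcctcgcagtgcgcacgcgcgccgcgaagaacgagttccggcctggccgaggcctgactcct
The motifs searched, on both strands, were the general E-box CANNTG, the clock E-box CACGTG (a special case of it), the MCAT element CATTCC, a MEF2 pattern (CTA, 4 bases of any kind, TAG), the D-box (TTATG, any base, AA) and the REV-ERB and ROR element TAGGTCA. The MEF2 pattern leaves its middle free and fixes both ends, so it can match sites that are not AT-rich and miss AT-rich ones. The *Myog* window held 2 general E-boxes, starting 138 and 12 bases before the RefSeq start. The GENCODE model of the gene starts at 134289989, inside the window, so the nearer E-box lies after that start. The AT-rich stretch ctatatttat in that window lacks the final TAG of the MEF2 pattern and was not counted as a match. The *Mef2c* window held 2 general E-boxes, 234 and 100 bases before its start, and an MCAT element on the other strand 75 bases before it. The *Mef2a* window held none of these letters. Of 32817 promoter windows, 66.2% hold the general E-box, 12.6% the MCAT element, 6.02% CACGTG, 3.2% the MEF2 pattern, 3.07% the D-box and 2.24% the REV-ERB and ROR element. Of the windows not shown, that of *Myf5* held a match to the MEF2 pattern 182 bases before the start, and 1 of the other *Mef2c* windows a general E-box 245 bases before it. The middle bases of the *Myf5* match, GGTT, are not all A or T.

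The libraries held 10076827 to 41733282 reads on genes at 10 weeks, 9325122 to 13610317 at 40 weeks and 6754312 to 8515400 in the second experiment. *Arntl*, the targeted gene, was checked first. At 10 weeks it had a normalized count of 402.5 to 633.9 in WT, 196.1 to 296.5 in KO muscle and 169.3 to 281.1 in KO+AAV muscle. At 40 weeks it was 479.9 to 607.9 in WT and 268.1 to 358.6 in KO+AAV libraries, and 307.5, 312.3, 381.1 and 395.4 in 4 of the KO libraries, but 1039 in the library labelled KO 40 weeks replicate 2, above all WT libraries. *Arntl* in KO+AAV minus KO was −0.06 ± 0.18 (SE) on the log2 scale at 10 weeks (adjusted *P* = 0.962). By protein, the paper detected HA-tagged BMAL1 in KO+AAV gastrocnemius at 10 weeks, on average below the BMAL1 level of WT. The RNA value is not a measure of that protein. The library labelled KO 40 weeks replicate 2 also held the lowest KO value of *Tead4*, *Myod1*, *Pax7* and *Mef2c* at 40 weeks. The outlier criterion used further below flagged none of the 10 genes in it. The calls of the 10 genes that rest on KO at 40 weeks are given with and without it.

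Per kb of exon, a scale on which genes can be compared, the 10 genes covered a wide span. In WT muscle at 10 weeks the mean normalized count per kb was 1149 for *Myf6*, 720 for *Mef2c*, 665 for *Mef2d*, 346 for *Tead1*, 262 for *Myod1*, 175 for *Mef2a*, 67.1 for *Tead4*, 50.3 for *Myog*, 10.1 for *Pax7* and 9.39 for *Myf5*. *Myf6* was thus the most abundant of the myogenic factors and *Myf5* the least. The ranges over libraries overlapped for the neighbors *Mef2c* and *Mef2d* (a ratio of 1.08 between their means), *Tead1* and *Myod1* (1.32), *Tead4* and *Myog* (1.33), and *Pax7* and *Myf5* (1.07), and not for the other neighbors in this order. *Pax7* and *Myf5* rested on few reads, 7 to 211 and 5 to 106 reads per library in the main experiment.

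**Figure D1:**
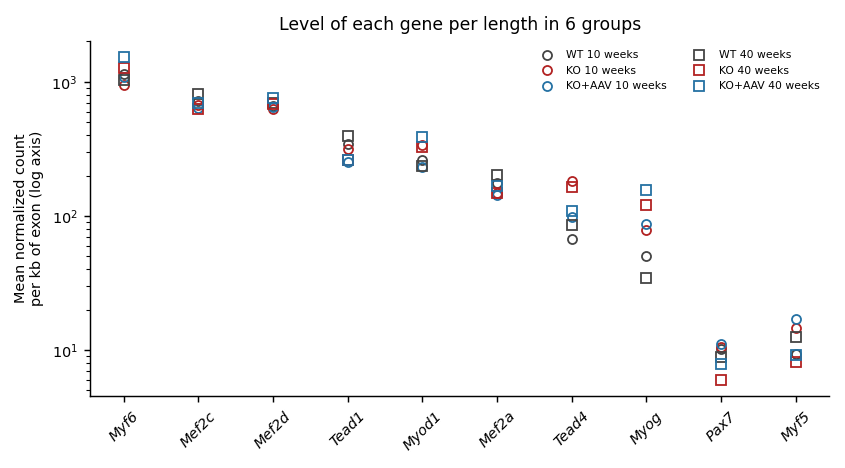
Mean normalized count per kb of exon (log axis) of the 10 genes in the 6 groups of the main experiment, circles at 10 weeks and squares at 40 weeks. For *Tead4* the means per kb run from 67.1 in WT to 182 in KO muscle at 10 weeks, and for *Mef2d* all 6 means lie between 626 and 759.

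*Tead4* was the member that differed most clearly between WT and KO muscle at 10 weeks. The gene (ENSMUSG00000030353) lies on the minus strand of chromosome 6, 128224288 to 128300823 in GRCm38, and no other gene shares its exons. Its normalized count ran from 199.7 to 291.2 (median 228.7) in WT, from 525.6 to 726.5 (median 708.4) in KO libraries and from 264.5 to 472.6 (median 314.7) in KO+AAV libraries. The WT and KO libraries did not overlap, nor did the KO+AAV and KO libraries, and the KO+AAV libraries lay between, with the lowest inside the WT range. *Tead4* was 2.7-fold higher in KO than in WT (log2 difference WT minus KO −1.43 ± 0.14 SE, adjusted *P* = 1.19e-08), the only member called and the only member without overlap. Of the 16199 genes tested 8% were called, 4.26% higher and 3.74% lower in WT, and 6.06% did not overlap. It fell by 0.89 ± 0.13 on the log2 scale in KO+AAV against KO (adjusted *P* = 0.000459), again alone among the 10 in the call and the absence of overlap, where 0.204% of all genes were called (0.136% higher and 0.0679% lower in KO+AAV) and 0.574% did not overlap. It remained 1.46-fold higher in KO+AAV than in WT (log2 −0.54 ± 0.13, adjusted *P* = 0.0118), alone among the 10 beside 5.15% of all genes (2.94% higher and 2.21% lower in WT), and no member was without overlap beside 2.86% of all genes. Called means a Benjamini-Hochberg adjusted *P* under 0.05 over all genes in limma. Between KO+AAV and KO at 10 weeks no macrophage or fibroblast marker was called, yet 8 of 10 and 5 of 8 had an unadjusted *P* under 0.05, with median differences of 1.25 and 0.67 beside 0.01 over all genes, and their part in the *Tead4* value was not tested.

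Within sites the direction of *Tead4* was the same. WT minus KO was −1.40 in the ICBR and −1.46 in the Novogene libraries alone, and both were called. KO+AAV minus KO was −1.01 (adjusted *P* = 0.0592) and −0.74 (adjusted *P* = 0.692), and WT minus KO+AAV −0.40 (adjusted *P* = 0.192) and −0.72 (adjusted *P* = 0.201), so none of these was called with 3 or 4 libraries per group.

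At 40 weeks *Tead4* kept its order. It was 373.6, 282.0, 260.2, 333.1 and 293.9 in the WT libraries, 606.7, 465.6, 582.4, 626.4 and 653.7 in KO, and 457.4, 428.1, 316.1, 317.4 and 435.1 in KO+AAV. The KO libraries were above all WT and KO+AAV libraries, and the WT and KO+AAV ranges overlapped. It was 1.9-fold higher in KO than in WT (log2 −0.93 ± 0.15, adjusted *P* = 3.48e-05, and −1.01, adjusted *P* = 2.07e-05, without the library labelled KO replicate 2). The difference of −0.59 ± 0.15 between KO+AAV and KO was not called (adjusted *P* = 0.0923, and −0.68, adjusted *P* = 0.0561, without that library), nor was −0.33 ± 0.15 between WT and KO+AAV (adjusted *P* = 0.159). Ordered by mean over both ages, *Tead4* ran from WT at 10 weeks (241 ± 36.6 SD) through WT at 40 weeks (309 ± 45), KO+AAV at 10 weeks (355 ± 82.4) and KO+AAV at 40 weeks (391 ± 68.5) to KO at 40 weeks (587 ± 72.7) and KO at 10 weeks (653 ± 95.5). Of these neighbors only KO+AAV and KO at 40 weeks had ranges that did not overlap. The change of the WT to KO difference from 10 to 40 weeks was 0.50 ± 0.21 (adjusted *P* = 0.291) and that of the KO+AAV to KO difference 0.29 ± 0.20 (adjusted *P* = 0.93).

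**Figure D2:**
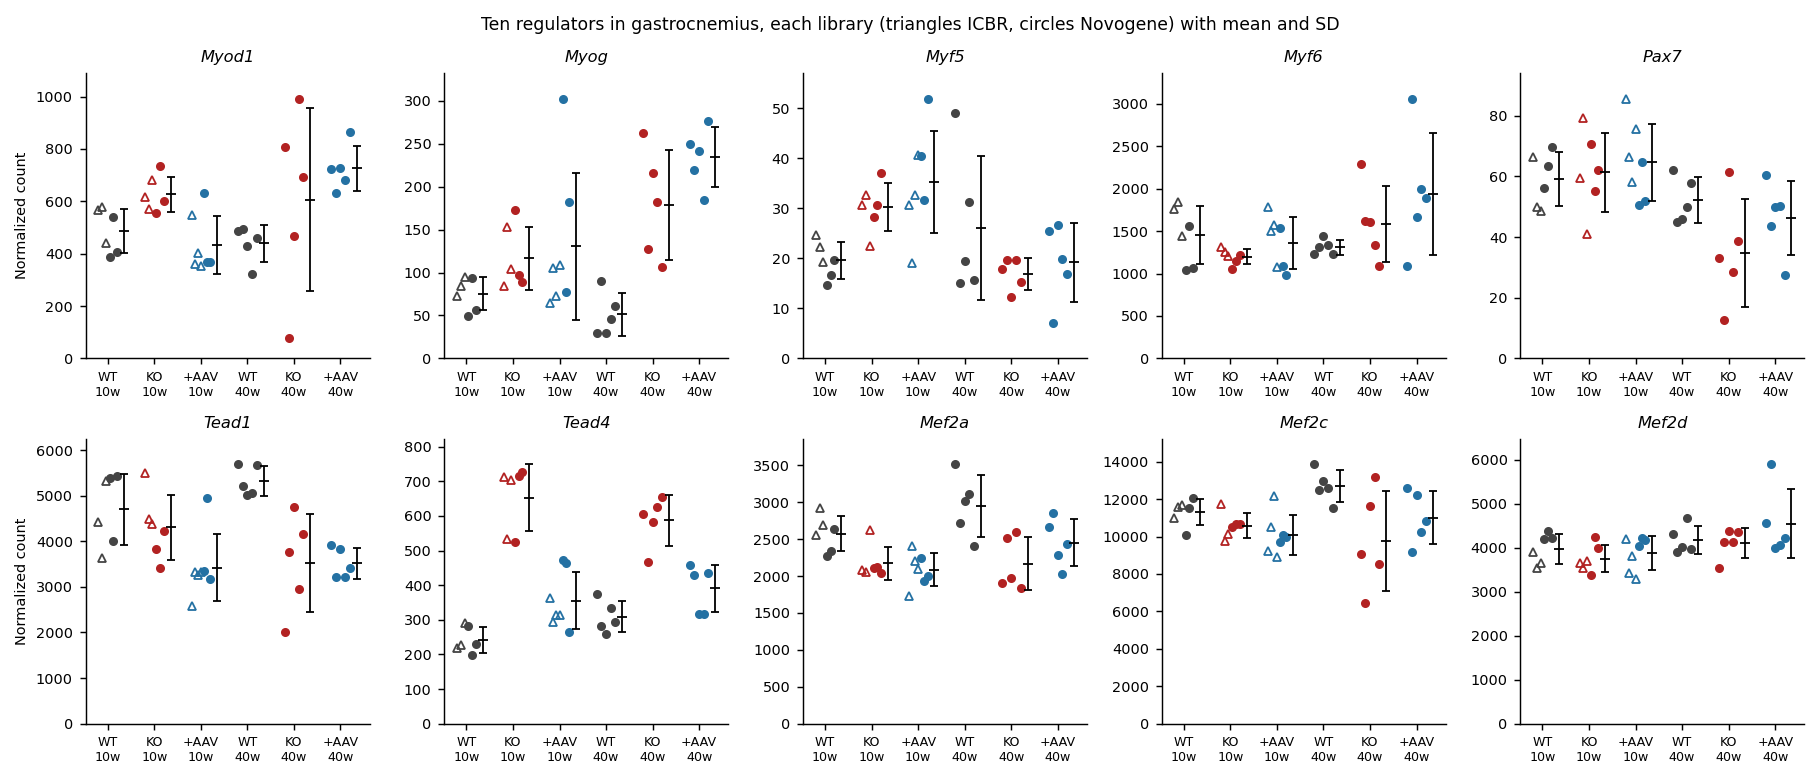
Normalized count of each of the 10 genes in every library of the main experiment, with mean and SD beside the points. For *Tead4* the KO libraries stand above the WT and KO+AAV libraries at both ages, and for *Myog* the KO and KO+AAV libraries at 40 weeks stand above those of WT.

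*Tead1*, the family member with the higher level per length, went the other way at 40 weeks. It was 5684, 5222, 5005, 5068 and 5676 in WT, 2013, 3773, 4750, 2952 and 4150 in KO, and 3924, 3221, 3841, 3218 and 3406 in KO+AAV libraries. WT did not overlap with either group, and KO varied most. *Tead1* was 1.57-fold higher in WT than in KO (log2 0.65 ± 0.17, adjusted *P* = 0.00474, and 0.69, adjusted *P* = 0.0056, without the library labelled KO replicate 2) and 1.52-fold higher than in KO+AAV (log2 0.60 ± 0.17, adjusted *P* = 0.0159). KO+AAV and KO differed by 0.05 ± 0.17, and by 0.09 (adjusted *P* = 0.914) without that library. At 10 weeks WT minus KO was 0.13 ± 0.15 and WT minus KO+AAV 0.46 ± 0.15 (adjusted *P* = 0.0655). The latter passed without KO+AAV replicate 6 (0.56, adjusted *P* = 0.0177) or without WT replicate 3 (0.53, adjusted *P* = 0.0476). With all libraries it was called by DESeq2 (0.45, adjusted *P* = 0.0371) and with library quality weights (0.41, adjusted *P* = 0.0337).

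*Myog* showed the largest difference of the 10 genes at 40 weeks. The gene (ENSMUSG00000026459) lies on the plus strand of chromosome 1, 134289989 to 134292548, and its promoter window is shown above. It was 29.7, 90.2, 30.1, 45.3 and 61.0 in the WT libraries, 262.7, 127.2, 216.1, 182.0 and 106.2 in KO, and 250.2, 218.9, 241.8, 184.6 and 276.9 in KO+AAV. Both knockout groups lay above WT without overlap, and they overlapped each other. *Myog* was 3.57-fold higher in KO than in WT (log2 −1.83 ± 0.33, adjusted *P* = 0.000125, and −1.94, adjusted *P* = 0.000158, without the library labelled KO replicate 2) and 4.88-fold higher in KO+AAV (log2 −2.29 ± 0.33, adjusted *P* = 1.35e-05). KO+AAV exceeded KO by 0.45 ± 0.33, which was not called (adjusted *P* = 0.694, and 0.35, adjusted *P* = 0.799, without that library). At 10 weeks the medians were 78.4 in WT, 100.3 in KO muscle and 105.7 in KO+AAV, with overlap throughout, and WT minus KO was −0.61 ± 0.30 (adjusted *P* = 0.258). KO+AAV at 10 weeks ran from 64.7 to 302.0. The highest value there was in replicate 5, whose 10 macrophage markers summed to 8668, against 898 to 2708 in the other 6 libraries, and their part in the value was not tested.

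Of the other myogenic factors, *Myod1* rested on 1 library at 40 weeks. It was 487.8, 495.0, 430.1, 323.7 and 461.1 in WT, 806.1, 78.8, 467.5, 990.4 and 692.3 in KO, and 723.6, 633.0, 727.7, 680.6 and 864.1 in KO+AAV. The low value was in the library labelled KO replicate 2. WT minus KO was −0.08 ± 0.36 (adjusted *P* = 0.903) with it and −0.71 (adjusted *P* = 0.00499) without it. With that library kept and library quality weights used, WT minus KO was −0.65 (adjusted *P* = 0.0403). KO+AAV lay above WT without overlap, yet the difference of −0.73 ± 0.36 was not called (adjusted *P* = 0.196). It was called with only these 2 groups in the model (−0.73, adjusted *P* = 0.00221) and with library quality weights (−0.80, adjusted *P* = 0.00386). At 10 weeks *Myod1* averaged 487 ± 85.3 in WT, 627 ± 67.7 in KO muscle and 433 ± 111 in KO+AAV. None of these differences was called in the main limma model. WT minus KO was called with only these groups compared (−0.38, adjusted *P* = 0.0373).

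*Myf6* was not called between groups in the main limma model at either age. At 10 weeks WT minus KO was 0.25 (adjusted *P* = 0.498), and with library quality weights it was called (0.34, adjusted *P* = 0.0497). Its means at 40 weeks were 1310 ± 88.6 in WT, 1587 ± 449 in KO muscle and 1937 ± 717 in KO+AAV, the last spread from 1084 to 3055. WT minus KO+AAV was −0.49 (adjusted *P* = 0.0919), and it was called by DESeq2 (−0.56, adjusted *P* = 0.0347) and without KO+AAV replicate 1 (−0.68, adjusted *P* = 0.0105). *Myf5*, at 14.7 to 24.7 in WT, 22.5 to 37.0 in KO muscle and 19.1 to 51.8 in KO+AAV at 10 weeks, was likewise not called (WT minus KO −0.61 ± 0.28, adjusted *P* = 0.20; WT minus KO+AAV −0.79 ± 0.27, adjusted *P* = 0.0812). The latter was called by DESeq2 (−0.78, adjusted *P* = 0.028), with a replicate block (−0.80, adjusted *P* = 0.0338) and without KO+AAV replicate 2 (−0.92, adjusted *P* = 0.0399). WT minus KO was called with only these groups compared (−0.61, adjusted *P* = 0.0417).

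*Pax7* was 62.3, 45.1, 46.0, 50.04 and 57.8 in WT libraries at 40 weeks and 33.0, 12.5, 61.3, 28.6 and 38.6 in KO. The groups overlapped through 1 KO library, replicate 3. Of the 40-week libraries it had the highest sum of slow fiber markers (158510) and the lowest of fast fiber markers (842034), and their part in the value was not tested. The lowest *Pax7* value, from 7 reads, was in the library labelled KO replicate 2. WT exceeded KO by 0.72 ± 0.26 (adjusted *P* = 0.0404), and by 0.41 (adjusted *P* = 0.201) without it. The call was also lost when any of 6 other libraries was left out, with DESeq2 (0.57, adjusted *P* = 0.0963), edgeR (0.56, adjusted *P* = 0.118) and quality weights (0.53, adjusted *P* = 0.143), and at 0.72 without the filter (adjusted *P* = 0.0691), with a replicate block (0.128) or with only the groups compared (0.19). The 11 satellite cell markers other than *Pax7* summed to 1754 to 2325 in WT, 2033 to 3059 in KO muscle and 1997 to 2565 in KO+AAV libraries at 40 weeks, with 1 of the 11 called lower in WT than in KO. In bulk muscle fewer satellite cells and less RNA per cell cannot be told apart.

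*Mef2a* and *Mef2c* were lower in KO than in WT at 40 weeks, and *Mef2d* was not called. *Mef2a* was 3511, 2714, 3014, 3113 and 2406 in WT and 1911, 2522, 1971, 2593 and 1841 in KO libraries, of which 2 KO libraries were above the lowest WT library. It was 1.37-fold higher in WT (log2 0.45 ± 0.11, adjusted *P* = 0.00319, and 0.51, adjusted *P* = 0.00157, without the library labelled KO replicate 2). About 2.06% of its exon bases are shared with *Lysmd4* on the other strand. *Mef2c* was 13851, 12510, 12966, 12583 and 11509 in WT and 9078, 6447, 11655, 13206 and 8520 in KO. WT exceeded KO by 0.42 ± 0.12 (adjusted *P* = 0.0144), but by 0.28 (adjusted *P* = 0.0756) without the library labelled KO replicate 2, which had the lowest value. The call was also lost at a difference of 0.42 with a replicate block (adjusted *P* = 0.0537) and with only the groups compared (adjusted *P* = 0.129). *Mef2d* differed by 0.02 ± 0.09 (adjusted *P* = 0.882), and 8.87% of its exon bases are shared with *1700113A16Rik* on the other strand. Since the strand setting of the counting is not known here, reads on the shared bases of these 2 genes are uncertain. KO+AAV lay between WT and KO in the means of *Mef2a* (2952, 2452 and 2167 in WT, KO+AAV and KO) and *Mef2c* (12684, 11013 and 9781). In the main limma model no difference from either group was called. *Mef2a* in WT minus KO+AAV (0.27, adjusted *P* = 0.116) was called with quality weights (0.30, adjusted *P* = 0.0395) and without WT replicate 5 (0.34, adjusted *P* = 0.048). At 10 weeks *Mef2a* was 0.25 ± 0.10 in WT minus KO (adjusted *P* = 0.148) and 0.31 ± 0.10 in WT minus KO+AAV (adjusted *P* = 0.0577). Both were called with quality weights (0.26, adjusted *P* = 0.0187, and 0.31, adjusted *P* = 0.015) and with only the groups compared (adjusted *P* = 0.0326 and 0.0409). WT minus KO+AAV was also called by DESeq2 (adjusted *P* = 0.0313), with a replicate block (0.0237) and with a mean above 50 (0.0478). It was called without KO+AAV replicate 2 (adjusted *P* = 0.0459) or replicate 5 (0.0484) as well.

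In all, 6 of the 10 genes were called between WT and KO at 40 weeks (4 higher and 2 lower in WT), where 23.5% of all genes were called (12% higher and 11.5% lower), and 3 did not overlap (*Tead4*, *Tead1* and *Myog*), where 13.6% of all genes did not. Without the library labelled KO replicate 2 there were 5, *Myod1* being called and *Pax7* and *Mef2c* not, where 1659 genes were called higher and 1522 lower in WT of 16170 tested. Between WT and KO+AAV 2 of the 10 were called (*Tead1* and *Myog*) beside 12.5% of all genes (6.05% higher and 6.41% lower in WT), and 3 did not overlap, *Myod1* being the other, beside 11.7%. Between KO+AAV and KO none was called in limma, beside 0.259% of all genes (0.222% higher and 0.037% lower in KO+AAV), and 1 did not overlap, beside 1.08%, although *Tead4* had an unadjusted *P* of 0.000473. At that comparison DESeq2 called 1 of the 10, *Tead4*.

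**Figure D3:**
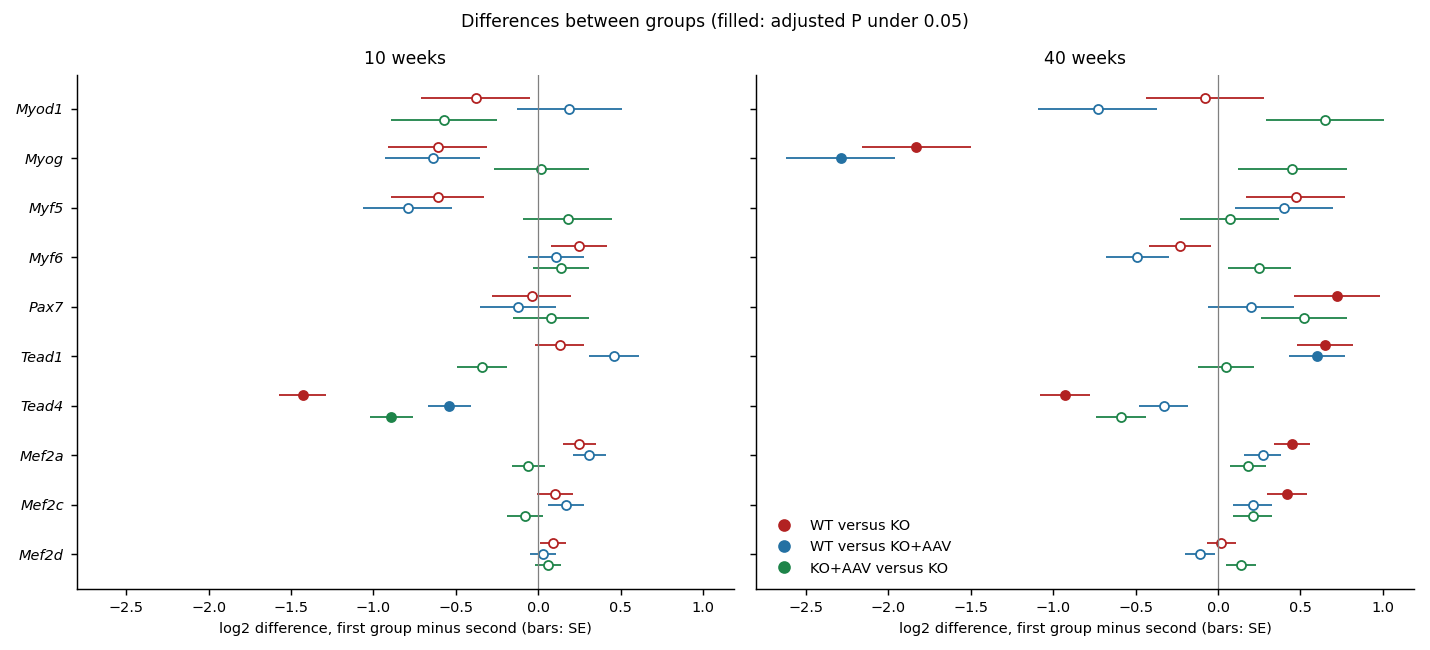
Log2 difference between groups with its SE for the 10 genes at 10 weeks (left) and 40 weeks (right), filled where the adjusted *P* was under 0.05. At 10 weeks the filled points are those of *Tead4* in its 3 comparisons, and at 40 weeks *Myog* reaches −1.83 and −2.29.

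With age, none of the 10 genes was called in WT muscle by limma, where 0.148% of all genes were called (0.111% higher and 0.037% lower at 40 weeks) and 2.64% did not overlap, and *Myog* and *Mef2a* had an unadjusted *P* under 0.05. In KO muscle *Pax7* fell by 0.92 ± 0.27 (adjusted *P* = 0.0297), the 1 member called beside 8.31% of all genes (4.05% higher and 4.26% lower at 40 weeks), and by 0.61 (adjusted *P* = 0.133) without the library labelled KO 40 weeks replicate 2. With all libraries, the other 11 satellite cell markers had a median change of −0.54 (1 called lower, 4 at an unadjusted *P* under 0.05) and the 8 fibroblast markers of −0.84 (1 called lower), and their part in the result was not tested. *Myf5* was the 1 member without overlap (−0.86 ± 0.31, adjusted *P* = 0.079, and −0.91, adjusted *P* = 0.122, without that library), beside 4.94% of all genes. In KO+AAV muscle *Myf6* rose by 0.64 ± 0.19 (adjusted *P* = 0.0361) and *Myf5* fell by 0.97 ± 0.31 (adjusted *P* = 0.0432), 2 of the 10 beside 8.53% of all genes (4.67% higher and 3.86% lower), and *Myod1* was the 1 member without overlap (0.79 ± 0.37, adjusted *P* = 0.177), beside 5.88%. *Myod1* was called with library quality weights (0.95, adjusted *P* = 0.00203). *Myog* was 0.91 ± 0.34 higher at 40 weeks (adjusted *P* = 0.0889). It was called with weights (1.12, adjusted *P* = 0.021), with no site term (1.04, adjusted *P* = 0.0283) and without KO+AAV 10 weeks replicate 5 (1.25, adjusted *P* = 0.0144). KO+AAV 40 weeks replicate 2 held both the highest *Myf6* (3055) and the lowest *Myf5* (7.02, from 5 reads), and without it they were 0.45 (adjusted *P* = 0.163) and −0.67 (adjusted *P* = 0.192). Other libraries mattered as well. With each of the 12 libraries left out in turn, the *Myf6* call held in 6 fits and the *Myf5* call in 5. In the same comparison 4 of 8 fibroblast markers fell (median −1.19), the 10 macrophage markers had a median of −1.38 (1 called lower, 6 at an unadjusted *P* under 0.05) and the 11 satellite cell markers of −0.41 (1 called lower, 6 at an unadjusted *P* under 0.05), and their part in the results was not tested. The 40-week libraries were all sequenced at Novogene. In Novogene libraries alone the KO+AAV changes of *Myf6* and *Myf5* were 0.63 and −1.16, neither called. None of the 10 genes was called for a change of the WT to KO difference with age, beside 0.37% of all genes (0.142% upward and 0.228% downward, and 5 members had an unadjusted *P* under 0.05), nor for that of the KO+AAV to KO difference, beside 0.00617% upward and 0% downward (1 member, *Myod1*). That *Myod1* change (1.22 ± 0.48, adjusted *P* = 0.909) includes the 78.8 of the library labelled KO 40 weeks replicate 2. So does its KO+AAV minus KO difference at 40 weeks (0.65 ± 0.36, adjusted *P* = 0.572).

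Between KO+GFP and KO control muscle the main limma model called none of the 10 genes (3 had an unadjusted *P* under 0.05). Of the 14477 genes tested it called 3.09% (1.83% higher and 1.26% lower in KO+GFP). DESeq2 called 1, *Myf6* (−0.45, adjusted *P* = 0.0492). Limma also called it without the filter (adjusted *P* = 0.0423), with quality weights (adjusted *P* = 0.0292) and with a replicate block (adjusted *P* = 0.0433). *Tead4* was 262.1, 336.4 and 295.4 in the KO control and 251.0, 191.7 and 241.5 in the KO+GFP libraries. The groups did not overlap, and the difference KO+GFP minus KO was −0.39 ± 0.13 (adjusted *P* = 0.138). *Myf6* was 510.2, 569.4 and 612.5 in control and 345.6, 492.4 and 395.7 in KO+GFP libraries (−0.47 ± 0.13, adjusted *P* = 0.0712). *Pax7* was 22.7 to 38.3 in control and 17.3 to 21.1 in KO+GFP libraries (−0.68 ± 0.28, adjusted *P* = 0.207). With *Mef2d* (1648 to 1855 and 1570 to 1610), 4 of the 10 did not overlap, where 23.5% of all genes did not. In the same libraries 6 of 8 slow fiber markers were called higher (summed 11188 to 15742 in KO+GFP and 1283 to 7695 in KO), as were 7 of the 9 macrophage markers tested and 3 of 8 fibroblast markers, and 3 of 5 Schwann cell markers were called lower. Their part in the values was not tested.

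**Figure D4:**
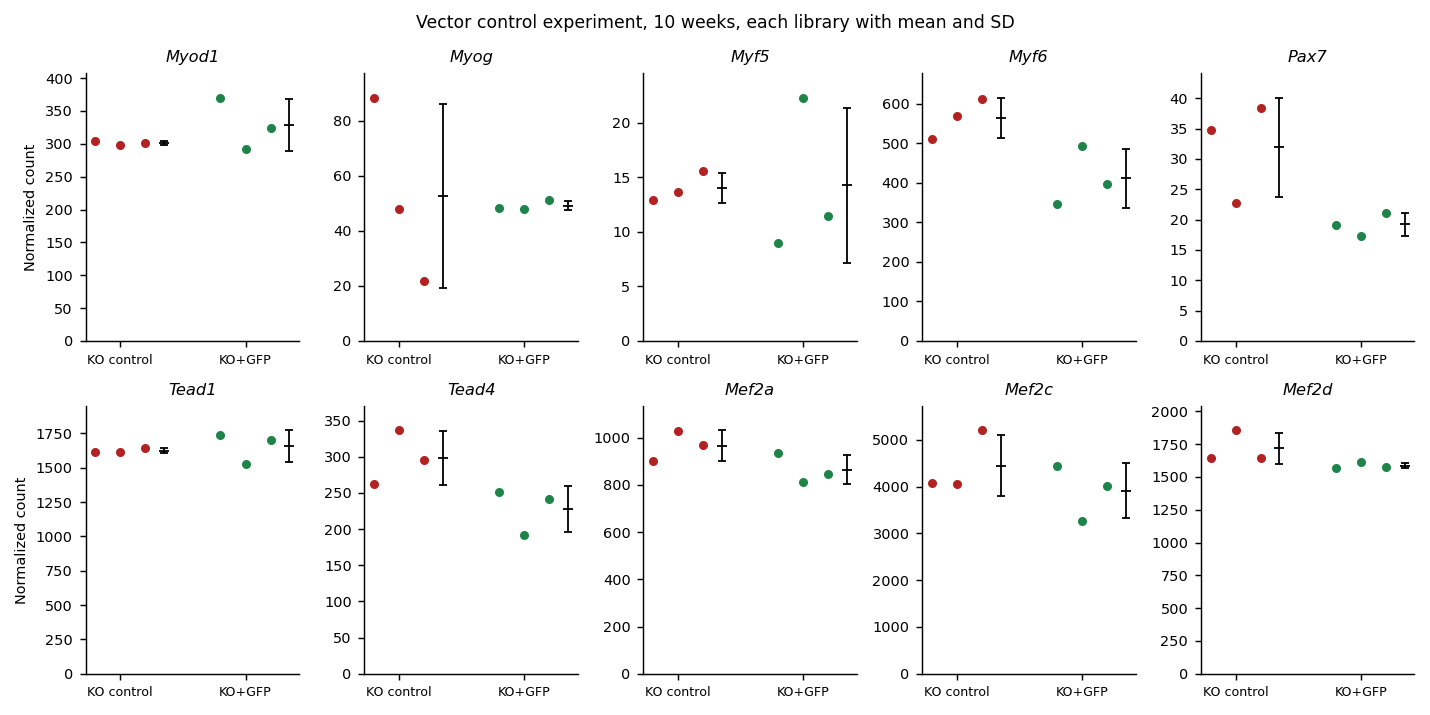
Normalized count of the 10 genes in the 3 KO control and 3 KO+GFP libraries, with mean and SD. *Tead4*, *Myf6*, *Pax7* and *Mef2d* are lower in each KO+GFP library than in each control library, and none passed the test.

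The counts in the gene lists that follow stand beside the shares of all genes called. These were 8% between WT and KO, 5.15% between WT and KO+AAV and 0.204% between KO+AAV and KO at 10 weeks, and 23.5%, 12.5% and 0.259% at 40 weeks. Of the changes with age, those in WT took 0.148% of the genes, in KO muscle 8.31% and with AAV 8.53%, and in the second experiment the share was 3.09%.

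The genes that work with TEAD were described by a list of 22 Hippo pathway and cofactor genes, 20 of them tested. At 10 weeks 1 was called between WT and KO, *Amot*, a YAP-binding scaffold, at 1904 ± 251 in WT and 3132 ± 286 in KO (log2 −0.72 ± 0.11, adjusted *P* = 3.35e-05). It was also lower in WT than in KO+AAV (−0.43 ± 0.11, adjusted *P* = 0.0134). At 40 weeks 6 of 20 were called between WT and KO, 4 lower and 2 higher in WT, with a median of −0.06 beside 0.01 over all genes, a share near the 23.5% of all genes. *Yap1*, the coactivator, was 1017 ± 38.7 in WT, 1652 ± 275 in KO muscle and 1529 ± 102 in KO+AAV, and was 1.61-fold higher in KO (log2 −0.68 ± 0.08, adjusted *P* = 1.93e-07) and 1.5-fold higher in KO+AAV (log2 −0.59 ± 0.08, adjusted *P* = 6.59e-06). *Amot* (−0.80 ± 0.12) and another family member, *Tead3* (−0.63 ± 0.18, adjusted *P* = 0.012) were also lower in WT. Without the library labelled KO replicate 2, 4 of 20 were called, 3 of them lower in WT. Against KO+AAV, 4 were called lower in WT, and none of the 20 between KO+AAV and KO at either age (2 at an unadjusted *P* under 0.05 each time). With age, *Yap1* rose by 0.46 ± 0.08 in KO (adjusted *P* = 0.00105) and by 0.46 ± 0.08 in KO+AAV (adjusted *P* = 0.000476), among 4 of 20 called in KO and 5 of 20 in KO+AAV. *Vgll3*, a TEAD cofactor, fell in both (−0.72 and −0.86), the kinase gene *Stk3* fell in KO (−0.74), and *Amot* rose in KO+AAV (0.58). Without the library labelled KO 40 weeks replicate 2, *Yap1* was the 1 gene of the list called in KO (0.38, adjusted *P* = 0.00403). In the second experiment *Vgll2*, a cofactor of the same family, was higher in KO+GFP than in KO control muscle (1.22 ± 0.22, adjusted *P* = 0.0118).

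Of 12 genes known as targets of YAP and TEAD, all tested, 2 were called between WT and KO at 10 weeks. *Ankrd1*, a nuclear protein of stressed muscle, averaged 95.7 ± 38.3 in WT, 288 ± 57.2 in KO muscle and 536 ± 276 in KO+AAV, and *Arhgef17* was higher in WT (0.78 ± 0.17, adjusted *P* = 0.00301). At 40 weeks *Ankrd1* was 144 ± 13.3 in WT, 2617 ± 1394 in KO muscle and 3960 ± 1385 in KO+AAV, 14.8-fold higher in KO (log2 −3.89 ± 0.40, adjusted *P* = 1.38e-08) and 25.8-fold higher in KO+AAV (log2 −4.69 ± 0.40, adjusted *P* = 1.15e-09). The list did not move in a single direction: 5 of 12 were called higher and 3 lower in WT than in KO at 40 weeks (4 and 3 without the library labelled KO replicate 2), with *Arhgef17* higher (1.34) and *Ptpn14* lower (−0.66). Between WT and KO+AAV 2 were higher and 3 lower, *Ptpn14* (−1.06) and *Ccn1* (−2.07) among the latter. None of the 12 was called between KO+AAV and KO at either age (3 at 10 and 4 at 40 weeks had an unadjusted *P* under 0.05). With age *Ankrd1* rose by 2.94 ± 0.41 in KO and 2.98 ± 0.41 in KO+AAV, and *Ptpn14* and *Ccn1* rose as well, *Ccn1* in KO by 1.22 and, without the library labelled KO replicate 2, 1.12 (adjusted *P* = 0.123). In KO+GFP muscle *Axl* was higher (0.76) and *Arhgef17* lower (−0.61).

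Partners and antagonists of the myogenic factors were 25 genes, 24 tested. At 10 weeks 4 were called between WT and KO, all higher in WT. *Bhlhe40*, a bHLH repressor under clock control, averaged 1460 ± 412 in WT, 511 ± 72.8 in KO muscle and 812 ± 191 in KO+AAV, and was 2.78-fold higher in WT than in KO (log2 1.48 ± 0.18, adjusted *P* = 6.75e-07). The homeobox genes *Six2* (1.39 ± 0.36, adjusted *P* = 0.0111) and *Lbx1* (0.68 ± 0.18, adjusted *P* = 0.0162) were also higher in WT than in KO. Against KO+AAV, *Bhlhe40* (0.80) and *Lbx1* (0.59) were higher in WT. At 40 weeks 5 were higher and 2 lower in WT than in KO (6 and 3 without the library labelled KO replicate 2), led by *Bhlhe40* (1.69), its paralog *Bhlhe41* (2.01) and *Six2* (2.50). Against KO+AAV, *Bhlhe40* was higher in WT (1.37), and *Id2*, an inhibitor of bHLH dimers (−1.71), and *Eya3*, a coactivator of homeobox factors (−0.29), were lower. None of the 24 was called between KO+AAV and KO (3 at 10 weeks and 8 at 40 weeks with an unadjusted *P* under 0.05). With age in KO, *Bhlhe41* (−1.39) and *Six5* (−1.03) fell and *Eya3* rose (0.29), of which *Bhlhe41* was called without the library labelled KO replicate 2 (−1.01, adjusted *P* = 0.0267), and in KO+AAV *Tcf4*, an E protein, fell (−0.52). In KO+GFP muscle *Six2* (−1.43) and *Bhlhe41* (−0.84) were lower.

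The list of MEF2 regulators and targets held 21 genes, 20 tested. *Nr4a1*, an activity-induced nuclear receptor, was the only 1 called between WT and KO at 10 weeks, at 3422 ± 864 in WT, 1423 ± 374 in KO muscle and 1770 ± 620 in KO+AAV (1.27 ± 0.25, adjusted *P* = 0.000959). It was also higher in WT than in KO+AAV (0.98), as was the glucose transporter gene *Slc2a4* (0.45). At 40 weeks 3 were higher and 1 lower in WT than in KO (2 and 1 without the library labelled KO replicate 2), *Nr4a1* (1.04) and the coactivator gene *Ppargc1a* (0.67) among the former. *Xirp1*, an actin-binding protein of damaged fibers, was the lower 1 (−1.40 against KO and −1.86 against KO+AAV), at 4148 ± 1487 in WT, 12988 ± 10627 in KO muscle and 15423 ± 6471 in KO+AAV. With age 2 of 20 rose in KO (*Xirp1* and *Smpx*; 0 without the library labelled KO replicate 2) and 2 in KO+AAV (*Xirp1* and *Hdac4*, a class IIa deacetylase), and in KO+GFP muscle *Srpk3* (−0.86) and *Myom2* (−0.48) were lower. None was called between KO+AAV and KO (2 at an unadjusted *P* under 0.05 at each age).

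Targets of the myogenic factors that were called lay lower in WT than in both knockout groups. Of 20 genes 18 were tested, and 6 were lower in WT than in KO at 10 weeks and 11 at 40 weeks, with none higher and medians of −0.74 and −1.70 beside −0.01 and 0.01 over all genes. Without the library labelled KO replicate 2, 12 of 18 were lower at 40 weeks. Against KO+AAV 6 were lower in WT at 10 weeks and 9 at 40 weeks. *Chrnb1*, a subunit of the muscle acetylcholine receptor, averaged 510 ± 83.6 in WT, 1082 ± 146 in KO muscle and 1019 ± 134 in KO+AAV at 10 weeks (log2 WT minus KO −1.09 ± 0.11, adjusted *P* = 2.93e-08), and 534 ± 57.8, 1526 ± 268 and 1458 ± 130 at 40 weeks (−1.50 ± 0.12, adjusted *P* = 1.34e-10). *Cdkn1a*, the cell cycle inhibitor p21, was 6.85-fold higher in KO than in WT at 10 weeks (adjusted *P* = 2.32e-06) and 28.1-fold at 40 weeks (adjusted *P* = 1.63e-10), and *Chrna1*, another receptor subunit, 2.49-fold and 2.93-fold. *Actc1*, the actin of immature muscle (−2.61 at 10 weeks), and *Gadd45a* (−2.01 at 40 weeks) were lower in WT than in KO+AAV. None of the 18 was called between KO+AAV and KO (5 at 10 weeks and 1 at 40 weeks with an unadjusted *P* under 0.05). With age 8 rose and 1 fell in KO (4 and 1 without the library labelled KO replicate 2), and 4 rose and 2 fell in KO+AAV. *Myh3*, the embryonic myosin, rose in both (3.49 and 3.22), as did *Cdkn1a* (1.98 and 2.26), and *Myl4* rose in KO (1.53). *Actc1* was the 1 called in WT, where it fell (−3.31), and it fell in KO+AAV as well (−3.71). In KO+GFP muscle *Chrna1* was lower (−0.50) and *Myh3* higher (2.48).

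The genes of these 5 lists named above for a call between WT and KO at 40 weeks were also called without the library labelled KO 40 weeks replicate 2. Of these, *Tead3* moved from −0.63 to −0.84, *Bhlhe41* from 2.01 to 1.62, *Xirp1* from −1.40 to −1.01 and *Ppargc1a* from 0.67 to 0.50 (adjusted *P* = 0.0474). Several of the changes with age in KO muscle were not called without it. They were those of *Vgll3* (−0.65, adjusted *P* = 0.101), *Stk3* (−0.53, adjusted *P* = 0.166), *Six5* (−0.77, adjusted *P* = 0.113), *Eya3* (0.24, adjusted *P* = 0.162), *Xirp1* (0.98, adjusted *P* = 0.0527), *Smpx* (0.39, adjusted *P* = 0.0834) and, as given above, *Ccn1*.

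**Figure D5:**
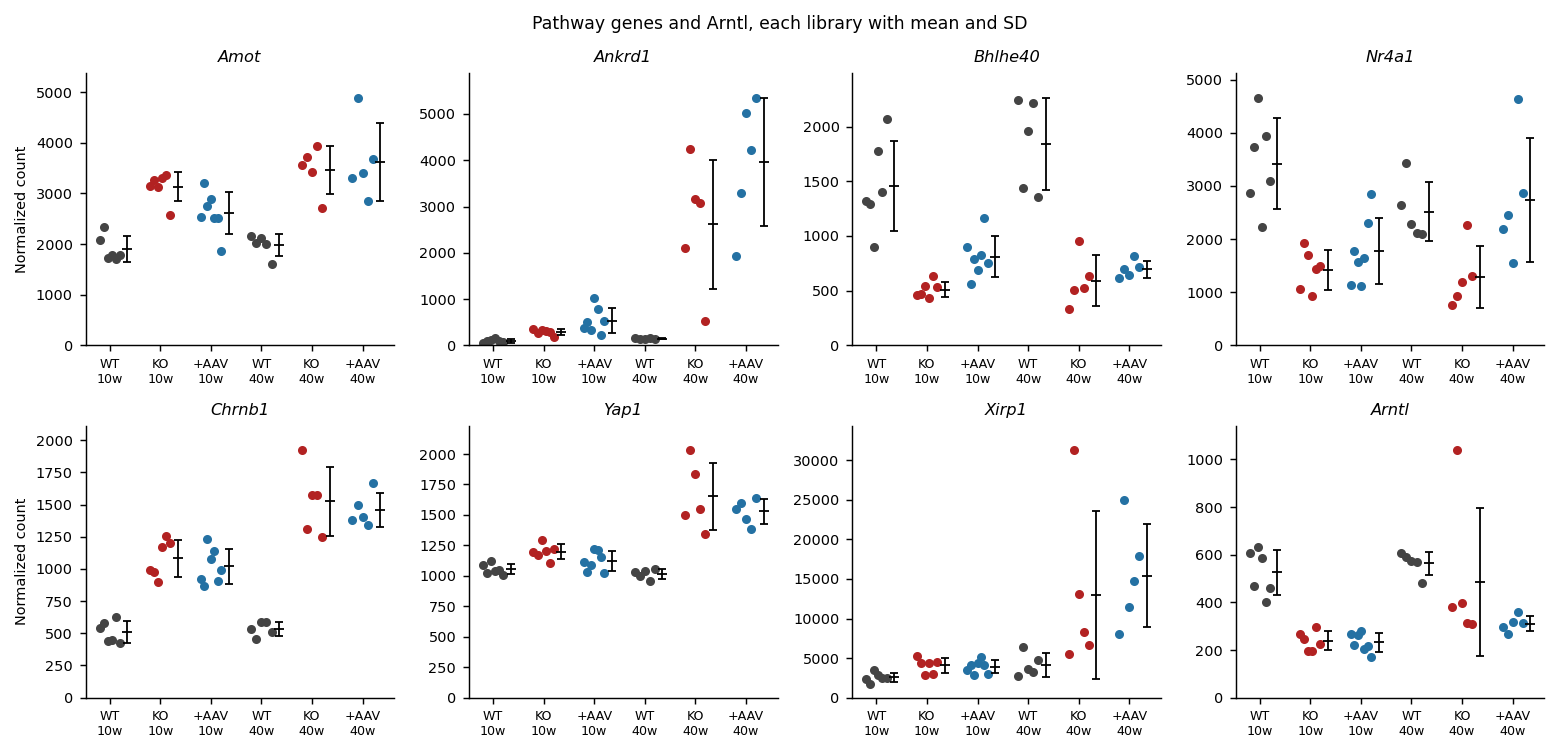
Normalized count in every library, with mean and SD, of the gene with the smallest *P* in each pathway list between WT and KO at 10 or 40 weeks, and of *Arntl*. At 40 weeks *Ankrd1* runs up to 5336 in KO+AAV libraries against 160 at most in WT, and *Arntl* reaches 1039 in 1 library labelled KO.

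Fiber and cell type markers were described by 8 lists. Of 8 slow fiber markers none was called between WT, KO and KO+AAV at either age, although 3 had an unadjusted *P* under 0.05 between WT and KO at 40 weeks (median −2.28), and their sum varied widely, from 1560 to 158510 over the 40-week libraries, and the highest was in KO replicate 3. Of 8 fast fiber markers none was called between WT and KO at 10 weeks and 2 were higher in WT at 40 weeks. Between KO+AAV and KO no marker of the 8 lists (satellite cell, fast fiber, slow fiber, macrophage, fibroblast, Schwann cell, adipocyte, endothelial) was called at either age. At 40 weeks, between WT and KO, 3 of 8 fibroblast and 2 of 5 adipocyte markers were higher and 2 of 5 endothelial markers lower in WT, and of the 5 Schwann cell and 10 macrophage markers limma called none (0 and 1 at an unadjusted *P* under 0.05). In KO+AAV muscle at 10 weeks the fibroblast markers summed to 140400 in replicate 4 and to 20253 to 28379 in the other libraries (median of all 26589). In WT the sums were 9229 to 27531 (median 14443) and in KO 8580 to 28537 (median 12869). Their part in the results was not tested. Each marker had reads in each group of the main experiment.

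Over the 34 libraries, after removal of each gene's mean and site effect, the genes nearest to *Tead4* by the root mean square of the log2 difference were *Agpat3* (0.29), *Sh3bp5* (0.30) and *Mrln* (0.33), where *Tead4* itself varied by 0.55. Those nearest to *Myog*, which varied by 0.86, were *Gas6* (0.54), *Colq* (0.55) and *Nav2* (0.55). For *Tead1* (0.35) they were *Trak1*, *Lrp6* and *Abl2*, at 0.23 to 0.25. *Mef2a* (0.23) had *Pum2*, *Bmpr2* and *Med13* at 0.13 to 0.14, and *Mef2c* (0.22) had *Cnst*, *Pkia* and *Larp4b* at the same distances. *Myf6* (0.36) had *Rps20*, *Zdhhc18* and *Mdm2* at 0.22 to 0.24. Of the low genes, *Myf5* (0.55) had *Arhgap11a*, *1700096K18Rik* and *Vgll3* at 0.43, and *Pax7* (0.47) had *Zfp74*, *Rara* and *Irf2bp1* at 0.31.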

How the data were processed

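RNA-Seq was measured in gastrocnemius. Per the labels and the study's methods, the authors prepared poly(A)-selected libraries, aligned reads to GRCm38 (mm10) with HISAT2 and took gene counts from HTSeq. The deposited values are a signal, each count over the size factor that DESeq2 gave its library. The annotation release and the strand setting are not given in the sources used here. Divided by the library's smallest step, the value of a single read, 100% of the values lay within 0.01 of a whole number, so reads were recovered. No 2 libraries were identical.

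Genes with a mean normalized count above 5 entered limma 3.58.1 (with trend) as log2(normalized count + 1) in R 4.3.3: 34 libraries, 6 groups and sequencing site in 1 model, and the 6 libraries of the GFP experiment in another. A fold change on this scale understates that of low genes. Called means a Benjamini-Hochberg adjusted *P* under 0.05 over all genes. The labels number the libraries and do not tie them to mice, so *P* measures the spread between libraries, which may be technical.

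Members and gene lists were chosen with earlier results of these data known. Named are the 10 members, *Arntl*, up to 3 called genes per pathway list and comparison with the smallest *P*, and the 3 genes nearest to each called member. *Tnni1* is in both the target and the slow fiber list. Gene models are GENCODE vM21, promoter windows RefSeq GRCm38.p6. Sums of marker genes are of normalized counts. The code was tested on simulated data. Same-numbered libraries were checked for pairing (6 of 17, 3 of 15 and 0 of 3 pairs had *r* over 0.1), and the numbers were not taken to pair libraries.

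Alternatives were a pseudocount of 0.5, no filter, a mean above 50, DESeq2 1.42.0 and edgeR 4.0.16 on recovered reads, TMM rescaling, library quality weights, no site term, the compared groups alone, 1 site alone, a replicate block, and each library left out. Figures used matplotlib 3.10.9. Libraries of other tissues were not used here. The result of 1 gene is not reported here.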

Additional observations from a re-analysis of the deposited data

Results flagged for a closer look

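Of 60 sets of 5 to 7 libraries, 1 for each of the 10 genes in each group of the main experiment, 2 had a library far from the others by Dixon's criterion, which chance passes in about 1 of 20 sets. *Tead1* was 4955 in KO+AAV 10 weeks replicate 6, beside 2570 to 3340 in the other 6 libraries. *Mef2a* was 2617 in KO 10 weeks replicate 3, beside 2042 to 2117 in the other 5.

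The difference of *Yap1* between WT and KO was larger at 40 than at 10 weeks by the interaction test (−0.50 ± 0.11, adjusted *P* = 0.0286), and without the library labelled KO 40 weeks replicate 2 the change was −0.42 (adjusted *P* = 0.0582).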

How the results depend on the processing

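The number of the 10 genes called was recomputed under each alternative, and no result changed direction while called. Between WT and KO at 10 weeks it was 1, and 3 with library quality weights and 4 with only the groups compared. Between WT and KO+AAV at 10 weeks it was 1, and 2 with a mean above 50, 4 with DESeq2, 3 with weights, 2 with only the groups compared, 3 with the replicate block, 0 in ICBR and 0 in Novogene libraries alone, and 1 to 3 with a library left out (WT replicate 3 or KO+AAV replicate 2, 5 or 6 raised it). Between KO+AAV and KO it was 1 at 10 weeks and 0 at either site alone, and 0 at 40 weeks and 1 with DESeq2. Between WT and KO at 40 weeks it was 6, and 5 without the filter, with DESeq2 or edgeR, 4 with only the groups compared or the block, and 5 to 6 with a library left out. Between WT and KO+AAV at 40 weeks it was 2, and 4 with weights, 3 with DESeq2 or only the groups compared, and 2 to 3 with a library left out. With age in KO it was 1, and 0 without the filter, with edgeR, weights, only the groups compared, the replicate block or Novogene alone, and 0 to 2 with a library left out. With age in KO+AAV it was 2, and 3 with weights, 1 with a mean above 50 or edgeR, 0 without the filter, with only the groups compared, the block or Novogene alone, and 0 to 2 with a library left out. In the GFP experiment it was 0, and 1 without the filter, with DESeq2, weights or the replicate block, and 0 to 1 with a library left out. The cause of these changes was not tested.

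Of all genes, 1296 were called between WT and KO at 10 weeks (3416 with weights, 2170 with only the groups compared, 557 at ICBR, 450 at Novogene), 834 between WT and KO+AAV (1396 with DESeq2, 1698, 1457 with the block, 307 and 180) and 33 between KO+AAV and KO (147, 180, 70, 3 and 15). At 40 weeks they were 3804 (2142 with only the groups compared), 2018 (3165 with weights, 1336 with the block) and 42 (79 with DESeq2, 24 with weights, 4 with only the groups compared, 15 with the block). With age in KO, 1346 genes were called, but 3 with only the groups compared, 7 with the block, 392 in Novogene alone, 531 with weights, 848 without the filter, 471 without the library labelled KO 40 weeks replicate 2, and 757 to 782 without KO 10 weeks replicate 5, 6 or 7. With age in KO+AAV they were 1382, but 292, 115 and 367 in the first 3 of these settings, 2088 with no site term and 703 without KO+AAV 40 weeks replicate 2. With age in WT they were 24 (171 with weights, 63 with DESeq2, 1 with the block, down to 7 with a library left out), for the WT to KO difference with age 60 (206 with DESeq2, 0 in Novogene alone, 24 to 197 with a library left out), and in the GFP experiment 448 (868 with weights, 108 without KO+GFP replicate 3). Leaving out a library moved the KO+AAV to KO counts to 19 at 10 weeks (KO replicate 1) and to 26 (KO+AAV replicate 4) or 75 (KO replicate 4) at 40 weeks. The replicate numbers are not shown to pair the libraries.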
